A study of Mesocricetus auratus with 6 samples.

Results

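Cytochrome P450 enzymes are heme proteins that add an oxygen atom to fats, steroids, bile acid precursors and foreign compounds, and the liver is known for carrying many of them. The P450 genes described here are those whose symbol in the deposited gene tables consists of Cyp, a family number, a subfamily letter and a gene number. Of 31593 genes, 2 met this rule, *Cyp17a1* and *Cyp7a1*. *Cyp17a1* encodes the 17α-hydroxylase/17,20-lyase of steroid hormone synthesis, and *Cyp7a1* encodes cholesterol 7α-hydroxylase, the rate-limiting enzyme of the classical bile acid pathway. They stand for the steroid and the bile acid classes. By this rule no gene of the drug-metabolizing or fatty acid classes was a member. For comparison, 12 further loci carry a provisional LOC symbol but a P450 name among their RefSeq synonyms. These 12 were chosen after their values were seen and are not counted as members.

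RNA was measured by RNA-seq in cortex, SCN (the suprachiasmatic nucleus, the site of the central circadian clock) and liver of Syrian hamsters, *duper* or wild type, taken at CT15, that is, 15 h on the circadian time scale. *duper* hamsters are homozygous for a frameshift deletion in *Cry1*, a repressor of the circadian clock, descend from a line in which the *tau* mutation was bred out, and were compared with wild-type hamsters of the same Lakeview (LVG) ecotype. The *duper* group was 4 females and the wild-type group 2 females and 2 males, so sex and genotype cannot be fully told apart, and the ages were not given in the sources used here. Each cortex and SCN library held the RNA of 4 hamsters and each liver set the merged reads of 4 libraries, which left 6 sets of values and no replicate within a tissue and genotype.

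Total estimated counts ran from 6788947 in the wild-type cortex to 85748562 in the *duper* liver. *Cry1* had 33.3, 22.9 and 16.8 TPM (the TPM unit scales a count for transcript length and library total) in wild-type cortex, SCN and liver, against 8.56, 8.14 and 5.44 TPM in *duper*. It was thus lower in the library labelled *duper* in each tissue. Of the marker genes tested, 6 of 6 hepatocyte genes were higher in liver than in brain, against 33.6% of all genes. Of the cortical projection neuron genes, 4 of 4 were lower in SCN than in cortex, against 6.8% of all genes. *Neurod6*, at 2.26 and 0.284 TPM in wild-type and *duper* SCN, may have entered only through its cortex libraries, which would fix its result. Of the SCN genes, 3 of 3 tested were higher in SCN than in cortex, against 3.77% of all genes. *Six6* and *Lhx1* entered only through their SCN libraries, so their result was fixed by the filter and is a description. *Rgs16*, the third, was higher still in liver (125 and 135 TPM) than in SCN (24.8 and 23.2 TPM, wild type first). *Prok2*, listed but not tested, was not higher in SCN (0.529 and 0.237 TPM) than in cortex (0.563 and 0.476 TPM). The tissue labels thus matched the hepatocyte genes, the cortical neuron genes other than *Neurod6*, and *Rgs16* between SCN and cortex.

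Each member had 1 transcript in the authors' tables, of 1724 bases for *Cyp17a1* and 1632 bases for *Cyp7a1*. Their estimated counts were whole numbers in all 6 libraries, whereas 25.3% to 29.8% of the values above 0 in a library were not whole. Kallisto, the program that made the counts, divides a read that fits several transcripts between them, which gives counts that are not whole.

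*Cyp17a1* had 113.0 TPM in the wild-type liver and 323 TPM in the *duper* liver, from 7288 and 25898 estimated counts. In the brain it had 1.05 TPM in wild-type cortex, 1.94 TPM in *duper* cortex, 1.77 TPM in wild-type SCN and 2.13 TPM in *duper* SCN, from 5, 14, 42 and 12 counts. Both liver values lay above all 4 brain values, and the brain values ran no higher than 2.13 TPM. Ranked by TPM, this steroid-pathway gene was number 1088 of all genes in wild-type liver and number 424 in *duper* liver.

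*Cyp7a1* had 68.7 TPM in the wild-type liver and 43.9 TPM in the *duper* liver, from 4161 and 3307 counts. In the brain it had 0 counts in wild-type cortex and in *duper* SCN, 1 count in *duper* cortex and 3 counts in wild-type SCN. The 3 counts that a library at 0 still allows correspond to 0.672 TPM in wild-type cortex and 0.567 TPM in *duper* SCN, so a lower level in brain was not detectable at this depth. Its rank was 1668 in wild-type and 2274 in *duper* liver. The order of the members in liver was the same in both genotypes, with *Cyp17a1* above *Cyp7a1*.

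**Figure D1:**
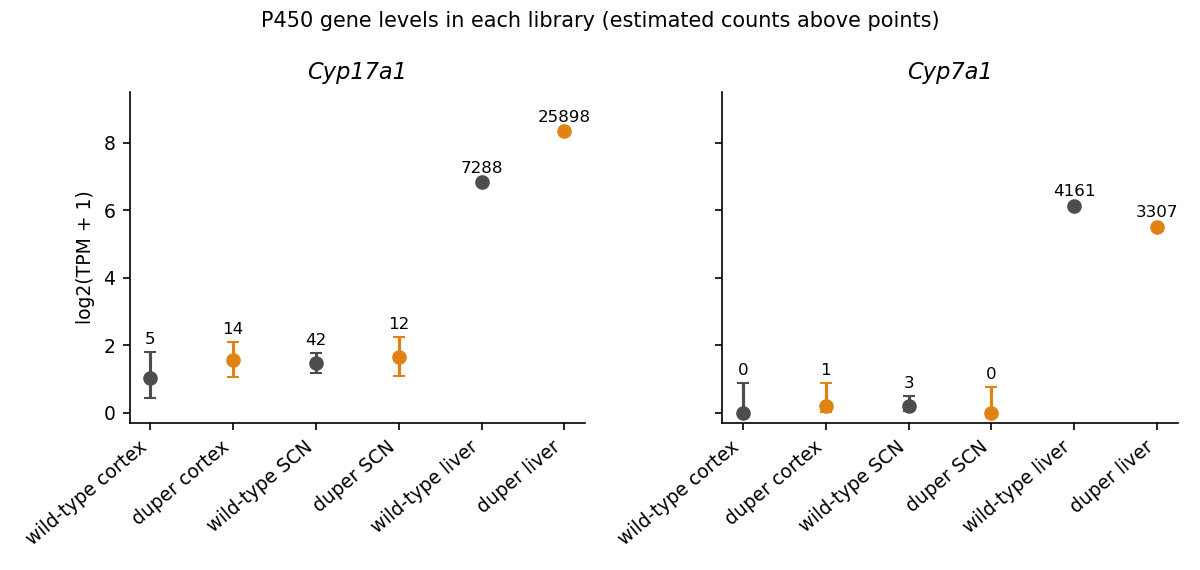
Level of *Cyp17a1* and *Cyp7a1* in each of the 6 libraries as log2(TPM + 1), with the estimated count above each point. Bars are exact 95% Poisson intervals, which cover counting error only. The liver libraries (7288 and 25898 counts for *Cyp17a1*, 4161 and 3307 for *Cyp7a1*) stand above all brain libraries, which hold 0 to 42 counts.

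The first comparison asked how the members are distributed between liver and brain. In wild type, *Cyp17a1* was 107.5-fold higher in liver than in cortex (95% interval 46.1 to 331) and 64.0-fold higher than in SCN (47.3 to 88.8). In *duper* the ratios were 166 over cortex (99.0 to 304) and 152 over SCN (86.8 to 294). These exact binomial intervals treat the estimated counts as counts and leave out the spread between hamsters. For *Cyp7a1*, 2 brain libraries were at 0, and the liver level was set against 3 counts there. It was 102-fold that level for wild-type cortex and 77.5-fold for *duper* SCN. The upper 95% Poisson limits at 0 counts were higher, at 0.826 and 0.697 TPM, so these folds are not strict lower bounds. Against the 3 counts in the wild-type SCN the ratio was 511 (174.8 to 2480), and against the 1 count in the *duper* cortex it was 297 (53.3 to 11740).

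Fitted with edgeR over all 6 libraries, with genotype as a term, *Cyp17a1* was higher in liver than in the mean of cortex and SCN. Its log2 fold change was 8.38 (SE 0.25, adjusted p = 1.71e-07 by the edgeR quasi-likelihood (QL) test, Benjamini-Hochberg method), and that of *Cyp7a1* was 10.64 (SE 0.29). A gene counted as called where its adjusted p was under 0.05 and its log2 fold change was beyond 0.58 in either direction. By this rule 33.6% of the 19780 genes tested were higher in liver and 32.6% lower, which are the shares to set beside the call of *Cyp17a1*. *Cyp7a1* entered this test only through its liver libraries, so its call was fixed by the filter and its value is a description. The 2 liver libraries are the 2 genotypes, and the same hamsters gave all tissues, so these p-values measure the spread between libraries and not between animals.

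Between the brain tissues, the log2 fold change of *Cyp17a1* in SCN over cortex was 0.75 (SE 0.51, adjusted p = 0.413, edgeR QL), which was not called. Without the wild-type SCN library it was −0.06. For *Cyp7a1* the value was 0.09 with an SE of 1.11, and it rested on 1 count in cortex and 3 in SCN. Of all genes, 3.77% were called higher and 6.8% lower in SCN.

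The low brain level of *Cyp17a1* was set beside that of genes of hepatocytes, the main liver cell type. *Alb*, *Apoa1*, *Apob*, *Serpina1* and *Tat* had brain levels of 0.0133% to 0.199% of their level in the liver of the same genotype. *Ttr*, the sixth gene on the hepatocyte list, was left out after its values were seen. It is also a gene of the choroid plexus of the brain and stood at 12.07% and 16.3% of its liver level in wild-type and *duper* cortex and at 1.09% and 0.157% in SCN. With it, the list summed to between 112 and 2558 TPM in the brain libraries and to 135200 and 142100 TPM in the liver libraries. *Cyp17a1* in the brain stood at 0.930% of its liver level in wild-type cortex, 0.602% in *duper* cortex, 1.56% in wild-type SCN and 0.659% in *duper* SCN. Each of these was above the highest of the 5 hepatocyte genes in that library, and in cortex below *Ttr*. The wild-type cortex share rests on 5 counts. Among the 10 LOC loci of at least 1 TPM in liver, the median share was 0.0485% to 0.111% over the brain libraries. The highest of them, CYP2D28a, stood at 12.82% to 27.56%. *Cyp7a1* stood at 0% in wild-type cortex and *duper* SCN, at 0.337% in *duper* cortex and at 0.196% in wild-type SCN, from its 1 and 3 counts. In *duper* cortex that 1 count also put it above the highest of the 5 hepatocyte genes (0.0832%). The part of liver RNA in these brain values was not tested.

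**Figure D2:**
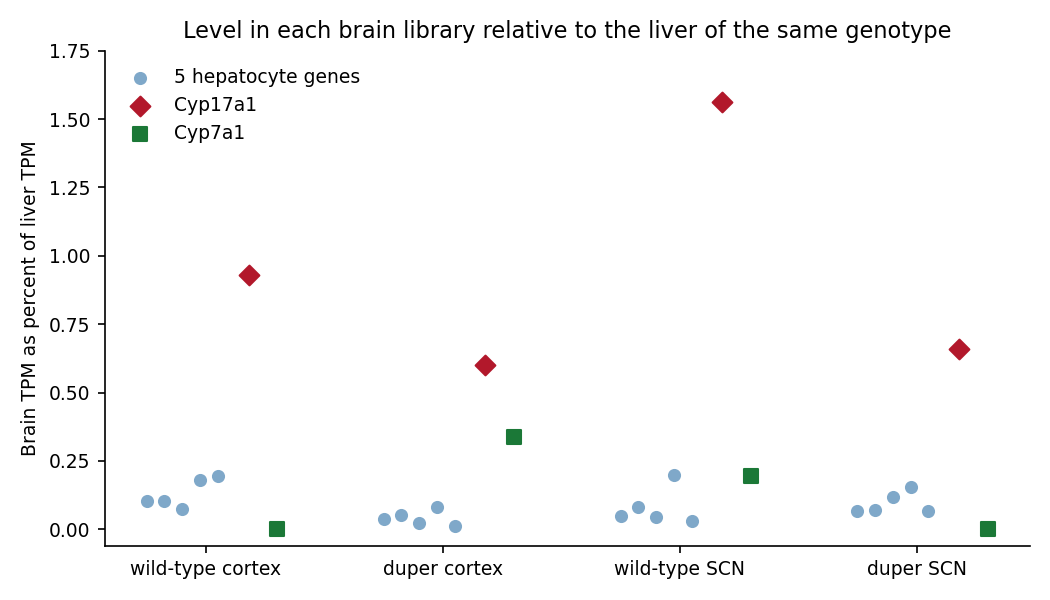
TPM in each of the 4 brain libraries as a percent of the TPM in the liver library of the same genotype. Red diamonds are *Cyp17a1*, green squares are *Cyp7a1* and blue points are the hepatocyte genes *Alb*, *Apoa1*, *Apob*, *Serpina1* and *Tat*, in that order. *Cyp17a1* lies between 0.602% and 1.56%, above these 5 genes in every brain library. *Ttr*, left out of the plot after its values were seen, was above *Cyp17a1* in cortex (12.07% and 16.3%).

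The second comparison asked how the loss of CRY1 in *duper* relates to the level of the members in liver. The members moved in opposite directions there. *Cyp17a1* was 2.86 times as high in *duper* as in wild type (95% interval for counting error 2.78 to 2.93), a log2 ratio of 1.51 with a pseudocount of 1 TPM. *Cyp7a1* in *duper* was 0.639 times its wild-type level (0.610 to 0.669), a log2 ratio of −0.63. Each genotype had 1 merged liver library, so there was no replicate check, no test was made, and the spread between hamsters is unknown.

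In the liver libraries 14054 genes averaged 1 TPM or more, and their median log2 ratio was −0.10. Rescaling TPM by TMM factors, which correct for a few genes taking a large part of a library, shifted that median to 0.04. Both members lay past the threshold of 0.58, *Cyp17a1* with the 4.75% of these genes that were higher in *duper* and *Cyp7a1* with the 10.5% that were lower. With TPM rescaled by TMM factors these shares were 8.5% and 8.3%, and with CPM and TMM factors 7.59% and 6.45%. A ratio as high as that of *Cyp17a1* was seen in 0.953% of the genes, and a ratio as low as that of *Cyp7a1* in 8.97%. With TPM rescaled by TMM factors the ratio of *Cyp7a1* was −0.47, and it no longer passed 0.58, while that of *Cyp17a1* was 1.68.

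In the brain the ratio of *Cyp17a1* in *duper* over wild type was 1.85 in cortex (95% interval 0.629 to 6.56) and 1.21 in SCN (0.578 to 2.33). Both intervals hold 1. The liver ratio lay inside the cortex interval and above the SCN interval, and whether the ratios differ between tissues was not tested. For *Cyp7a1* no ratio was formed in the brain, where it was at or under 3 counts in every library.

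Across the 3 tissues, with tissue as a term, the log2 fold change of *Cyp17a1* in *duper* over wild type was 1.35 (SE 0.27, unadjusted p = 0.00196, adjusted p = 0.680, edgeR QL). Its TPM was higher in *duper* in 3 of 3 tissues, but the gene was not called. The 3 tissues of the same hamsters stood in for replicates here. The p-values of this test therefore do not measure the spread between animals of a genotype. Without liver the log2 fold change was 0.49 (SE 0.65) in that test, so the size of this value rests on the liver libraries. *Cyp7a1* had too few counts outside liver to enter. Of the 18275 genes tested, 0 were called higher and 1 lower in *duper*, the latter a share of 0.00547%, and 606 had an unadjusted p under 0.05. *Cry1*, the mutated gene, was itself not called (log2 fold change −1.69, SE 0.17, adjusted p = 0.131, edgeR QL). A gene that this test did not call is therefore not shown to be unchanged. The likelihood ratio test in edgeR called *Cyp17a1* with an adjusted p = 0.0157, while over all 11 alternatives the adjusted p ran from 0.0157 to 1.00.

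Marker genes of other cells and liver zones differed between the wild-type and *duper* liver libraries in some lists and not in others. Of all genes at 1 TPM or more in liver, 4.75% were higher and 10.5% lower in *duper* past 0.58. The 5 Kupffer cell genes, which mark liver macrophages, summed to 294 TPM in the wild-type and 487 TPM in the *duper* liver, with 3 of 5 past 0.58. The 8 periportal hepatocyte genes summed to 6000 TPM and 3998 TPM, with 4 of 8 lower past 0.58 and a median log2 ratio of −0.60. Of the 8 pericentral genes, 1 was higher and 1 lower past the threshold, with a median of 0.20. None of the 3 cholangiocyte genes (median 0.05) and the 3 endothelial genes at 1 TPM or more (median −0.21) passed it. The 6 hepatocyte genes had a median of 0.04, and 0 of them passed 0.58. The steroid cell gene *Star*, which brings cholesterol into mitochondria for hormone synthesis, had 1.30 TPM in the wild-type against 1.06 TPM in the *duper* liver, and *Nr5a1*, a transcription factor of adrenal and gonadal cells, had 0 counts in both. The part of these cell types in the ratios of *Cyp17a1* and *Cyp7a1* was not tested. In whole-liver RNA, fewer cells of a type and less RNA per cell cannot be told apart.

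P450 enzymes work with electron donors, and receptors for bile acids, fatty acids and foreign compounds control their genes. Of 8 listed genes of electron donors and partners, 4 were in the tables, namely *Fdx1*, *Fdx2*, *Fdxr* and *Pgrmc1*. *Por*, *Cyb5a*, *Cyb5b* and *Cyb5r3* were not found under these symbols and have no values here. *Fdx1*, the ferredoxin of mitochondrial P450s, had 153.5 TPM in the wild-type and 191 TPM in the *duper* liver. *Pgrmc1*, a heme-binding partner of P450s, had 1591 and 1005 TPM, and with a log2 ratio of −0.66 it was the 1 of 4 past 0.58. Of 19 regulators, 17 had at least 1 TPM in liver, with a median log2 ratio of −0.10, and 0 of these were higher and 1 lower past 0.58. Among all genes at that level, 4.75% were higher and 10.5% lower past 0.58, the shares to set beside both lists.

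The regulators of *Cyp7a1* differed less than the threshold or were lower in *duper*. *Nr1h4*, the bile acid receptor FXR, had 93.6 and 62.9 TPM in the same order, with a log2 ratio of −0.57. *Nr0b2*, the repressor SHP that FXR switches on and that lowers *Cyp7a1* transcription, stood at 121.0 and 146.5 TPM, for a log2 ratio of 0.27. *Hnf4a*, an activator of liver genes, had 212 TPM and 243 TPM, and *Nr5a2*, a nuclear receptor of the same pathway, had 25.8 TPM and 23.8 TPM. *Ppara*, the fatty acid receptor, was at 97.3 and 49.2 TPM and had, at −0.97, the lowest log2 ratio of the regulators at 1 TPM or more.

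Among the 6 clock output factors, transcription factors that carry the circadian rhythm to other genes, 1 was past the threshold in liver. It was lower in *duper*, as were 10.5% of all genes at 1 TPM or more. *Dbp*, a rhythmic activator that binds the *Cyp7a1* promoter in rats, was at 40.5 TPM in wild-type liver against 20.2 TPM in *duper* (log2 ratio −0.97). Its relatives *Tef* and *Hlf* had log2 ratios of −0.12 and −0.11, and *Nr1d1*, the repressor REV-ERBα, had 4.15 TPM and 6.08 TPM. All tissues were taken at 1 time point, so a change in level and a shift in the time of the rhythm cannot be told apart for these genes or for the members.

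The growth hormone and sex-pattern genes are a list tied to sex differences of the rodent liver. Of 7 in the tables, 3 were higher and 1 lower in the *duper* liver past 0.58. The shares of all genes at 1 TPM or more were 4.75% and 10.5%. *Prlr*, the prolactin receptor, stood at 9.78 TPM in wild-type liver against 72.0 TPM in *duper*, and its log2 ratio of 2.76 was larger than that of *Cyp17a1*. *Cux2* and *Trim24* had log2 ratios of 0.66 and 0.88, and *Bcl6*, a repressor that is higher in male mouse liver, had −0.90. The wild-type set held 2 males and the *duper* set none, so sex and genotype cannot be told apart for these genes or for *Cyp17a1*. Across the 3 tissues, 0 of the genes of these 4 lists were called in the edgeR test, which did not call *Cry1* either.

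**Figure D3:**
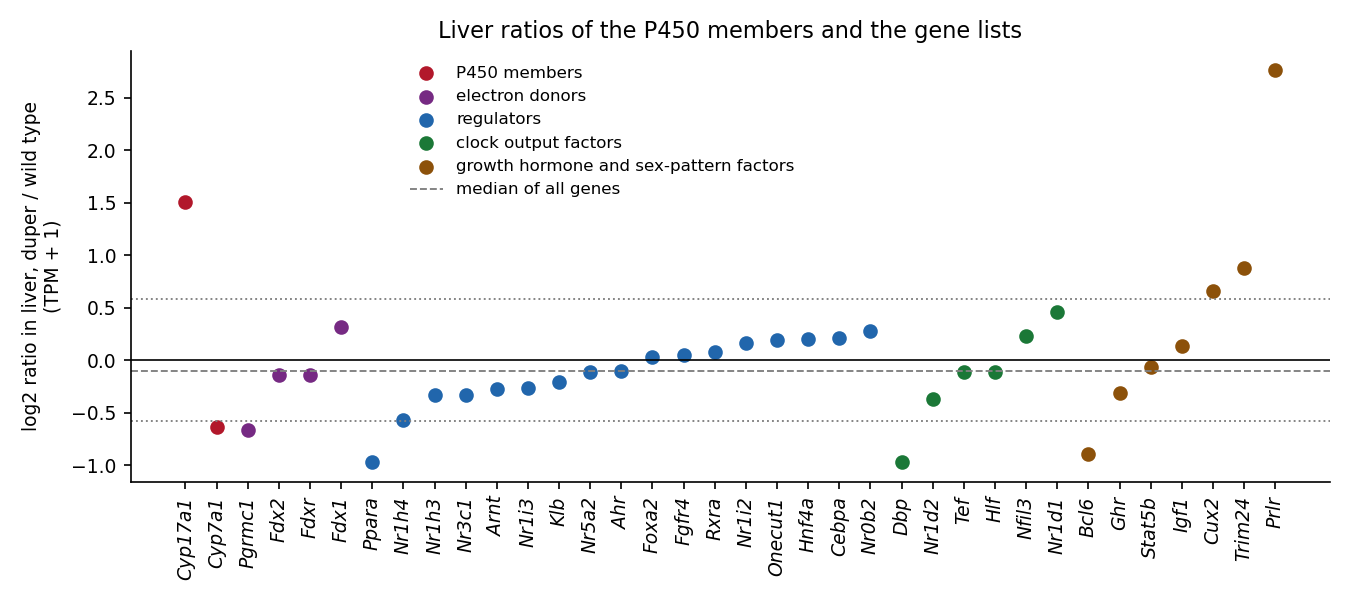
Log2 ratio of *duper* over wild type in liver, with a pseudocount of 1 TPM, for the P450 members and for genes of the 4 lists with a mean of at least 1 TPM. The dashed line is the median of all 14054 genes (−0.10) and dotted lines are at 0.58 and −0.58. *Cyp17a1* (1.51) is exceeded only by *Prlr* (2.76), and *Cyp7a1* (−0.63) lies near *Pgrmc1* (−0.66).

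The members were set beside the P450 loci with LOC symbols to show where they differ. Of those 12, 10 had at least 1 TPM in liver, from 483 to 13196 TPM in wild type, all above both members. The members made up 0.556% of the summed TPM of the 14 P450 loci in liver of wild type and 1.62% of it in *duper*. In *duper* the 10 loci had a median log2 ratio of −0.42, from −2.06 to −0.04, so *Cyp7a1* lay within their range and *Cyp17a1* above it. Past 0.58, 3 of the 10 were lower and 0 were higher. With TPM rescaled by TMM factors 9 of the 10 were still under 0, with 2 past −0.58. That *Cyp17a1* differs from these loci has no test, since the ratios come from the same 2 libraries.

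**Figure D4:**
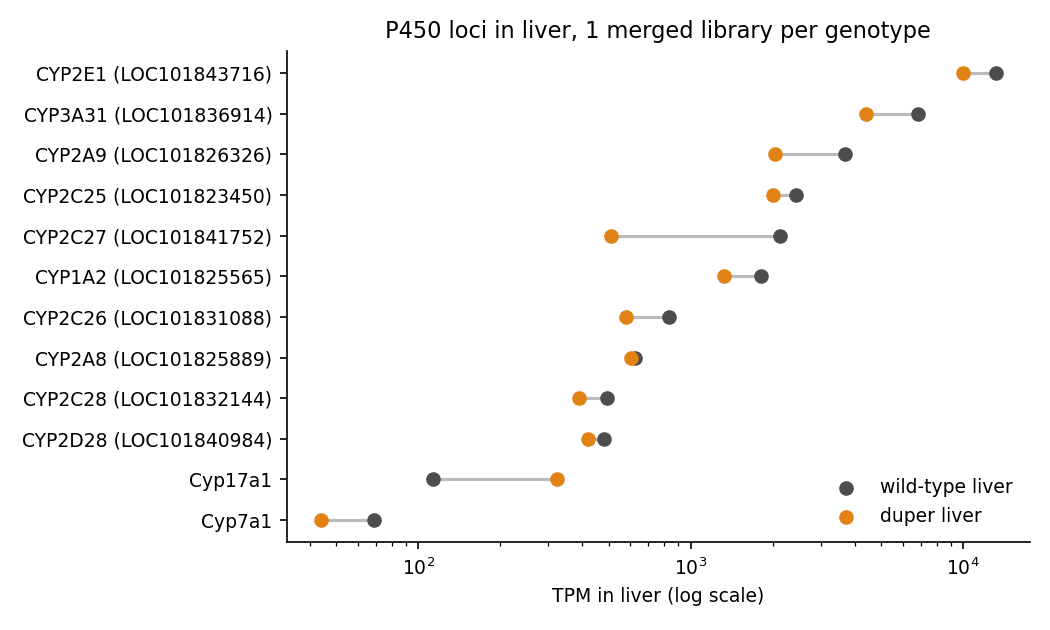
Liver level in TPM on a log scale for the members and the 10 LOC loci of at least 1 TPM, ordered by the wild-type value. Grey points are wild type, orange points *duper*, and each is 1 merged library. *Cyp17a1* is the only one of the 12 with the *duper* point (323 TPM) to the right of the wild-type point (113.0 TPM) on this scale. *Cyp7a1* has the lowest levels.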

How the data were processed

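The authors quantified RNA-seq reads with Kallisto against the MesAur2.0 reference (Kallisto's version is not given in the sources used here) and summed transcripts to genes with tximport. The deposited values are estimated counts, not normalized, and TPM, for genes and for transcripts, with transcript lengths. RefSeq's table of BCM_Maur_2.0 served only for names and synonyms, and 31590 of 31593 symbols matched. Samples were grouped by the labels' genotype and tissue. The members, lists and tests were chosen with earlier results of these data known.

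After rounding, the estimated counts entered edgeR 4.0.16 (R 4.3.3; TMM, filterByExpr by genotype or, between tissues, by tissue, quasi-likelihood test at default settings, Benjamini-Hochberg adjustment over all genes tested). DESeq2, the authors' own test, was an alternative here (version 1.42.0). SE stands for the standard error, taken as the size of the log2 fold change divided by the root of F. Liver ratios used log2(TPM + 1) without a test, and intervals were exact at 95% (scipy 1.17.1). Intervals cover counting error only. Plots used matplotlib 3.10.9.

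Named by rule were members with at least 1 TPM in any library or called in any test. Genes named singly from the lists, and the P450 loci with LOC symbols, were chosen after their values were seen. The fits were tested on simulated data with 100 genes changed 2-fold and 100 changed 4-fold. The genotype fit across tissues called 66 and 86 of these, and 5 unchanged genes. For liver over brain the numbers were 57 and 83, with 2 unchanged genes called. No sequence of the members was used here. The other listed genes enter the counts and medians only, and a gene first placed on the regulator list was left out of them.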

Additional observations from a re-analysis of the deposited data

Results flagged for a closer look

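The ratio of *Cyp17a1* was above 1 in all 3 tissues, and *Cyp7a1* had no ratio in the brain. Of the P450 loci with LOC symbols, 3 went in opposite directions, with the counting interval of the *duper* over wild-type ratio above 1 in SCN and below 1 in liver, and this difference between tissues was not tested. The CYP3A31 locus, *LOC101836914*, had a log2 ratio of −1.79 in cortex, 0.89 in SCN and −0.63 in liver, from 57 and 19 counts in cortex and 42 and 24 in SCN in wild type and *duper*. The CYP2E1 locus, *LOC101843716*, had −1.34 in cortex, 0.60 in SCN and −0.40 in liver. The CYP2C27 locus, *LOC101841752*, had −1.07 in cortex, 0.79 in SCN and −2.06 in liver, from 9 and 2 counts in cortex after rounding. The counts of the CYP2E1 and CYP2C27 loci were not whole in most libraries, so they include reads divided with other transcripts. Of the 6 hepatocyte genes in the brain libraries, *Alb*, *Apob* and *Tat* were lower in *duper* in cortex and higher in SCN, with *Alb* at 43.9 TPM in *duper* against 112 TPM in wild type in cortex, and at 72.9 against 52.2 TPM in SCN. In the same order, *Apoa1* and *Serpina1* had 3.84 against 6.77 TPM and 4.70 against 8.36 TPM in cortex, and in SCN 5.31 against 5.30 TPM and 8.71 against 9.17 TPM. *Ttr* went the other way, with 2505 against 1837 TPM in cortex and 24.1 against 165 TPM in SCN. The part of liver-derived reads in these brain values was not tested.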

How the results depend on the processing

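Among the alternatives to the edgeR fits, those without a fold threshold and with a threshold of 1 reuse the main fit and repeat its fold changes. The liver over brain fold change of *Cyp17a1* kept its direction in all 14 alternatives, from 7.13 to 8.99. That of *Cyp7a1* ran from 9.47 to 12.59 in 13 alternatives, and filtering by genotype removed it. The number of genes called there stayed between 11057 and 14579 against 13089. Across the 3 tissues *Cyp17a1* stayed higher in *duper* in 11 alternatives (0.49 to 1.69) and was called in 1, the likelihood ratio test. The number of genes called across the tissues was 1, and it was 42 with DESeq2, 48 with at least 1 count in total as the filter, 15 with filterByExpr by tissue, 91 with the likelihood ratio test, 0 without the tissue term (32 genes at an unadjusted p under 0.05), and from 2 to 34 with 1 tissue left out, 34 without SCN, 22 without liver and 2 without cortex. For SCN over cortex, 2091 genes were called, 3393 with the likelihood ratio test, and from 356 to 3619 with 1 library left out (356 without the wild-type cortex, 3619 without the wild-type liver). In liver, 2 members passed 0.58, and 1 did with CPM and TMM factors, with TPM rescaled by TMM factors, or at a threshold of 1, *Cyp7a1* being the one lost. The median log2 ratio of the 2 members was 0.44, and it was 0.62 and 0.60 with the first and second of these scalings. Library size in place of TMM changed the split of genes between liver and brain from 6644 higher and 6445 lower to 3108 and 11471. The labels carry no replicate numbers. Since all 3 tissues were taken from 1 set of hamsters per genotype, the genotype term in the tissue fits holds this pairing. Without that term 13260 genes were called between liver and brain and 2279 between SCN and cortex. Depth limits the brain values, where the members had at most 42 counts.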

Other observations

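The P450 loci with LOC symbols that lie outside the rule held patterns of their own. Tested for liver over brain, 10 of the 11 with enough counts were called higher in liver, against 33.6% of all genes. These loci were chosen after their values were seen, so the count is a description. The CYP2C28 locus, *LOC101832144*, and the CYP2C26 locus, *LOC101831088*, also entered only through their liver libraries. They had at most 9 and 4.34 counts in any brain library. The locus not called was CYP1A1, *LOC101844540*, with at most 28 counts in any library. The CYP2D28a locus, *LOC101840984*, had the highest brain levels of the 14 P450 loci, at 61.8 and 68.0 TPM in wild-type and *duper* cortex and 126 and 116 TPM in SCN. It was called higher in SCN than in cortex, by 0.90 on the log2 scale (SE 0.15, adjusted p = 0.0119, edgeR QL). Its counts were not whole, so reads shared with near-identical loci could enter it.

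The CYP2C27 locus, *LOC101841752*, had the lowest *duper* over wild-type ratio of the P450 loci in liver at 1 TPM or more, at 2133 against 510 TPM for wild type against *duper*. Its neighbours in the subfamily had ratios nearer to 0, the CYP2C25 locus *LOC101823450* with a log2 ratio of −0.28, the CYP2C26 locus *LOC101831088* with −0.53 and the CYP2C28 locus with −0.34. The counts of the CYP2C25, CYP2C26 and CYP2C27 loci were not whole in liver, so they include reads divided with other transcripts. The CYP11A1 locus, *LOC101827747*, of the first step of steroid synthesis, had at most 1 count in any library, beside the 7288 and 25898 liver counts of *Cyp17a1*.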
